A study of Mus musculus with 6 samples.

Results

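The genes described here are the 9 TGF-beta and activin signalling genes *Tgfb1*, *Tgfb2*, *Tgfb3*, *Inhba*, *Tgfbr1*, *Tgfbr2*, *Tgfbr3*, *Smad7* and *Tgfbi*, chosen by symbol from the 32286 genes in the count matrices. They were measured by single-cell RNA sequencing in "digits in a dish" (DID) cultures, in which dissociated cells reassemble into digit-like structures. Every culture was grown from wild-type distal forelimb mesenchyme of CD-1 mouse embryos at E11.5, with tissue of several embryos pooled before plating. The 6 libraries were made at Day 2, Day 7 and Day 10 of culture, with replicates A and B, from independent cultures, at each day (n = 2 per day).

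TGF-beta ligands are secreted in a latent form, held in the matrix by latent TGF-beta binding proteins and released by integrins and thrombospondin. The active ligand binds the type II receptor TGFBR2, which recruits the type I receptor TGFBR1, and both activin and TGF-beta signals are passed on by SMAD2 and SMAD3 with SMAD4. In the developing limb this pathway is known for roles in cartilage condensation, joint formation and tendon.

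The 5' sequences of ligand genes with opposite courses in culture are shown first, so that the changes below can be read beside the DNA at their starts. Each is the 250 bases before the gene start from RefSeq (GRCm38.p6), written 5' to 3' on the strand of the gene, with capitals for the searched motifs that were found. *Tgfb1* lies at chr7:25686752-25687001 (+), *Tgfb2* at chr1:186705990-186706239 (-) and *Inhba* at chr13:16011601-16011850 (+).
Tgfb1: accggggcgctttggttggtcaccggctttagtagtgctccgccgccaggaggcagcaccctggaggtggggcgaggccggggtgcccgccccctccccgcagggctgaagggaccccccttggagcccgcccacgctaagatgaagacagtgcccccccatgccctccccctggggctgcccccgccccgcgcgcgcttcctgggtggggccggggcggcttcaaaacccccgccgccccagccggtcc
Tgfb2: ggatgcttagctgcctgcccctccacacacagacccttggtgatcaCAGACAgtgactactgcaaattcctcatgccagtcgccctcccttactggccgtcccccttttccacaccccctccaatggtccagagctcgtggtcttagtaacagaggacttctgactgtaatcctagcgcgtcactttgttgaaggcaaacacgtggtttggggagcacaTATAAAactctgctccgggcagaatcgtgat
Inhba: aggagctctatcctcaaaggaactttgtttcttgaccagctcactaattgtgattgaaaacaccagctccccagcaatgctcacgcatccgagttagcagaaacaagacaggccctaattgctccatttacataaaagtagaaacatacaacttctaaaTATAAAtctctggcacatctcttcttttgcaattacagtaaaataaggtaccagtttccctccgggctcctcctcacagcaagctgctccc

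The search took 5 motifs on both strands, namely CAGACA (a SMAD-binding element), TGAGTCA (AP-1), TGACGTCA (cyclic AMP response element), GGAATG (TEAD) and TATAAA (the core of the TATA box), and no motif is contained in another. In *Tgfb2*, CAGACA stood at positions -204 to -199 and TATAAA at -31 to -26 from the gene start. The *Inhba* window held TATAAA at -91 to -86, and the *Tgfb1* window held none of the searched letters. Of all 32851 promoters of this length in the table, 17.1% held CAGACA and 12.4% held TATAAA. The GC content was 75.2% for *Tgfb1*, 53.6% for *Tgfb2* and 43.2% for *Inhba*, beside a median of 52.4%. The table held 6 of the 9 genes, and these matches are descriptions of letters only.

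The libraries held 178022112 to 260245417 UMIs in the cells that passed the limits of the study, which numbered 9448 to 16486 per library. Depth per cell was uneven, with a median of 18587 UMIs in Day 2 replicate A and 3871 in replicate B. At Day 7 it was 8062 and 9337, and by Day 10 it was 24197 and 22128. Between 24 and 67 cell barcodes were shared by any pair of libraries, at most 0.543% of the smaller. Markers of the labelled mesenchyme were present, and the summed level of 6 immune markers lay between 11.4 and 23.1 CPM (UMIs of the list scaled to a common library total) at Day 2 and between 96.9 and 122.5 at Day 10. That of 6 myogenic markers lay between 412.6 and 536.0 at Day 2 and between 3.24 and 8.48 at Day 10. The 5 cycling markers summed to 1748 and 1897 at Day 2 and to 295.1 and 348.3 at Day 10. Of 5 erythroid markers, 4 were at 0 in each library of Day 7 and Day 10. For 12 chondrocyte markers the sum went from 2130 and 2298 (Day 2) to 19050 and 17730 (Day 7). It then fell to 11630 and 10710 (Day 10). Sums of 7 osteoblast markers rose from 13.5 and 16.6 (Day 2) to 637.8 and 873.8 (Day 10). Those of 4 perichondrium markers rose from 1062 and 1128 to 4125 and 3641 between the same days. At Day 10 most of the osteoblast sum was *Ibsp* and most of the perichondrium sum *Col1a1*. Members of these lists also fell between those days. The log2 fold change was -0.84 for *Sox9* (chondrocyte), -0.58 for *Phex* (osteoblast) and -0.56 for *Fbn2* (perichondrium), while the other markers of the 3 lists rose. The part of these shifts in the changes below was not tested, except where values without immune-like and myogenic-like clusters are given.

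From Day 2 to Day 10 the ligand genes split. *Tgfb1*, *Tgfb3* and *Inhba* rose while *Tgfb2* fell, and among the receptors *Tgfbr2* and *Tgfbr3* rose while *Tgfbr1* fell. The inhibitor *Smad7* and the target *Tgfbi* were also lower at Day 10 than at Day 2. Between these days, all 9 genes passed an adjusted p of 0.05 (edgeR quasi-likelihood test, Benjamini-Hochberg over 18987 genes), 5 higher and 4 lower. This stands beside 77.3% of all genes called, 39.0% higher and 38.2% lower, so passing the test was common. With library totals and no TMM factors, the median log2 fold change of all genes from Day 2 to Day 10 was -0.26 in place of 0.0013, with 5474 genes higher and 9347 lower in place of 7414 and 7256. The 9 genes kept their directions and calls in that comparison on this scale too, with *Tgfb3* at 0.47 (0.73 with the factors) and *Tgfbr2* at 0.39 (0.65 with them). Values are CPM, the UMIs of a gene summed over the cells of a library and scaled to a common library total, here with TMM factors. In such sums, fewer cells of a type and less RNA per cell cannot be told apart.

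**Figure D1:**
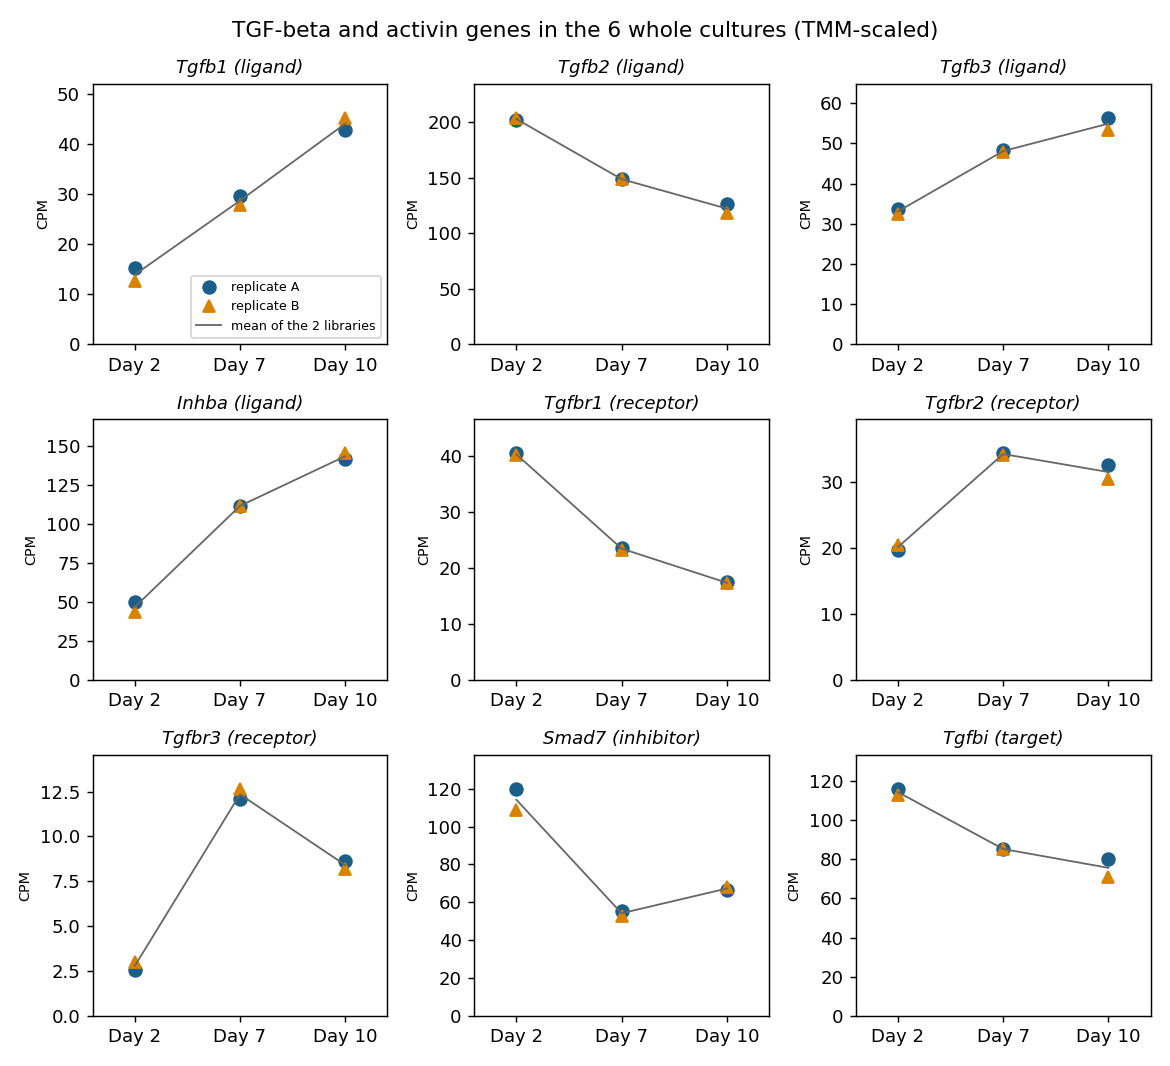
CPM (TMM-scaled, linear axis from 0) of the 9 genes at Day 2, Day 7 and Day 10, with a circle for replicate A, a triangle for replicate B and a line through the mean of the 2 libraries. *Tgfb1* and *Inhba* climb at each day, *Tgfb2* and *Tgfbr1* descend at each day, and *Tgfbr3* peaks and *Smad7* is lowest at Day 7.

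Among the ligands, *Tgfb1* (ENSMUSG00000002603, chr7:25687002-25705077, GRCm38), which encodes TGF-beta 1, had 15.1 and 12.6 CPM in replicates A and B of Day 2, 29.5 and 27.7 by Day 7, and 42.8 and 45.2 by Day 10. The 3 days did not overlap, and each later day was higher. The log2 fold change was 1.05 ± 0.08 (SE) from Day 2 to Day 7 (edgeR adjusted p = 5.67e-06) and 0.62 ± 0.08 from Day 7 to Day 10 (edgeR adjusted p = 0.000415).

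*Inhba* (ENSMUSG00000041324, chr13:16011851-16031621) encodes the inhibin beta A chain, 2 copies of which form activin A. It had 49.9 and 43.5 CPM at Day 2, 111.7 and 111.6 by Day 7, and 141.7 and 145.3 by Day 10. Again the days were apart, with the larger step before Day 7. The step to Day 7 was a log2 fold change of 1.26 ± 0.07 (SE, edgeR adjusted p = 4.96e-07), and the step to Day 10 was 0.36 ± 0.07 (edgeR adjusted p = 0.00215). The second step did not pass with each cell thinned to 1000 UMIs (0.17, edgeR adjusted p = 0.177) or over all deposited barcodes (0.17, edgeR adjusted p = 0.0519).

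*Tgfb3* (ENSMUSG00000021253, chr12:86056745-86079041), the gene of TGF-beta 3, had 33.8 and 32.3 CPM at Day 2, 48.3 and 47.9 by Day 7, and 56.4 and 53.4 by Day 10. No day overlapped another. It rose by a log2 fold change of 0.54 ± 0.05 (SE) to Day 7 (edgeR adjusted p = 1.7e-05), and the step to Day 10 was 0.19 ± 0.05 (edgeR adjusted p = 0.0128). With each cell thinned to 1000 UMIs that last step was -0.032 (edgeR adjusted p = 0.839), and its direction turned. It also did not pass without Day 7 replicate A, Day 7 replicate B or Day 10 replicate A (0.20, 0.19 and 0.15), or over all deposited barcodes (0.064, edgeR adjusted p = 0.306). In clustered cells outside the chondrocyte-like class (described below), *Tgfb3* went from 68.5 and 66.6 to 63.9 and 60.1 CPM (not TMM-scaled) over that step. In chondrocyte-like cells it went from 18.0 and 15.7 to 19.7 and 20.1. The part of cell proportions in the whole-culture step was not tested. *Tgfb3* overlaps *Ttll5*, *Gm37804* and *Gm48008* on the opposite strand, and whether the counting used strand is not given in the sources used here. The same limit holds for *Tgfb2* (*Gm26169* and *Gm29491*), *Inhba* (*B230303A05Rik* and *Gm48444*) and *Tgfbr3* (*Gm8145*).

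*Tgfb2* (ENSMUSG00000039239, chr1:186622792-186705989), which encodes TGF-beta 2, took the opposite course. It had 201.6 and 204.1 CPM at Day 2, 148.9 and 148.4 by Day 7, and 125.9 and 118.2 by Day 10. Each later day was lower, with no overlap. The log2 fold changes were -0.45 ± 0.05 (SE, edgeR adjusted p = 6.35e-05) and -0.28 ± 0.05 (edgeR adjusted p = 0.00228). After thinning, the first was -0.19 and did not pass (edgeR adjusted p = 0.0664).

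Of the receptors, *Tgfbr1* (ENSMUSG00000007613, chr4:47353222-47414931), the type I receptor kinase, had 40.5 and 40.2 CPM at Day 2, 23.7 and 23.3 by Day 7, and 17.5 and 17.3 by Day 10. It fell at both steps, and replicates lay closer to each other than to any other day. The log2 fold change from Day 2 to Day 10 was -1.22 ± 0.05 (SE, edgeR adjusted p = 5.12e-08).

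*Tgfbr2* (ENSMUSG00000032440, chr9:116084293-116175360), the type II receptor that binds the ligand, had 19.7 and 20.5 CPM at Day 2, 34.3 and 34.1 by Day 7, and 32.5 and 30.4 by Day 10. Both later days were above Day 2. The rise to Day 7 was a log2 fold change of 0.77 ± 0.05 (SE, edgeR adjusted p = 2.45e-06). From Day 7 to Day 10 the difference was -0.12 (95% interval -0.24 to 0.00062, edgeR adjusted p = 0.0869), which did not pass. It passed after thinning (-0.38, edgeR adjusted p = 0.0262) and without immune-like and myogenic-like clusters (-0.15, edgeR adjusted p = 0.0484).

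*Tgfbr3* (ENSMUSG00000029287, chr5:107106570-107289629), or betaglycan, is a co-receptor that presents TGF-beta 2 to the type II receptor and also binds inhibin. It had 2.56 and 2.98 CPM at Day 2, 12.1 and 12.6 by Day 7, and 8.62 and 8.19 by Day 10. Day 7 was the highest and Day 2 the lowest, with no overlap. The log2 fold change was 2.16 ± 0.08 (SE) from Day 2 to Day 7 (edgeR adjusted p = 7.84e-08) and -0.55 ± 0.08 from Day 7 to Day 10 (edgeR adjusted p = 0.000531). Gene models *Gm43422*, *Gm43423* and *Gm42900* lie within it on the same strand, so part of its reads may be counted elsewhere.

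The inhibitor *Smad7* (ENSMUSG00000025880), which blocks the type I receptor and is itself induced by TGF-beta, had 119.7 and 108.6 CPM at Day 2, 55.5 and 52.8 by Day 7, and 66.2 and 68.2 by Day 10. Day 7 was the lowest day. The log2 fold change was -1.08 ± 0.06 (SE, edgeR adjusted p = 6.68e-07) to Day 7 and 0.31 ± 0.06 (edgeR adjusted p = 0.00287) from there to Day 10. The target *Tgfbi* (ENSMUSG00000035493, chr13:56609523-56639562), a secreted matrix protein induced by TGF-beta, had 115.9 and 113.0 CPM at Day 2, 85.2 and 85.4 by Day 7, and 80.3 and 71.1 by Day 10. It was highest at Day 2, and it fell to Day 7 with a log2 fold change of -0.42 ± 0.06 (SE, edgeR adjusted p = 0.000286). The step to Day 10 was -0.17 ± 0.06 (edgeR adjusted p = 0.045), and it did not pass without Day 7 replicate A, Day 7 replicate B or Day 10 replicate B (-0.18, -0.17 and -0.08), without TMM factors (-0.15, edgeR adjusted p = 0.0562), or with each cell thinned to 1000 UMIs (-0.11, edgeR adjusted p = 0.497).

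From Day 2 to Day 7, 5 of the 9 genes were called higher and 4 lower, where 70.3% of all genes were called, 35.7% higher and 34.6% lower. From Day 7 to Day 10, *Tgfb1*, *Tgfb3*, *Inhba* and *Smad7* were higher and *Tgfb2*, *Tgfbr1*, *Tgfbr3* and *Tgfbi* lower, where 52.2% of all genes were called, 26.3% higher and 25.9% lower. Leaving out Day 2 replicate B, the shallowest library, left 5 higher and 4 lower in the first comparison.

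Within cells the genes were far from even. Cells of at least 2000 UMIs were clustered per day without the 9 genes and the wider pathway list among the features, and clusters took names from fixed markers where these allowed it. Levels in clusters are CPM of the sum over a cluster in a library, not TMM-scaled, and they are descriptions with no test. Cluster order is given for clusters with at least 50 cells in each library, which the immune-like cluster reached at Day 10 only. The Day 2 replicates differed in their clusters. An unnamed one led by *Ulk4* and *AY036118* held 1.40% of the clustered cells of replicate A and 33.8% of those of replicate B. Its median depths were 27103 and 3259.5 UMIs.

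At Day 2 *Inhba* was highest in an unnamed cluster led by *Ankrd1*, *Krt19* and *Krt18*, with 169.9 and 173.2 CPM in replicates A and B, and the myogenic-like cluster had 8.80 and 7.03. The *Ankrd1* cluster was enriched for the smooth-muscle-type contractile genes *Cnn1*, *Acta2*, *Tagln*, *Myl9* and *Actg2*, but none of them was among its 10 leading genes, where the ectoderm marker *Krt18* stood, so it is not treated as the same class as the named clusters of the later days. At Day 7, 2 clusters were named contractile mesenchyme-like. The larger, deeper one was led by *Spp1* and the articular marker *Prg4*. *Actg2* was the only contractile marker among its 10 leading genes. In the Day 10 cluster of that name *Actg2*, *Cnn1*, *Acta2* and *Tagln* were among the 10, so the name of the Day 7 cluster is less firm. Both clusters were also enriched for *Prg4*, *Scx*, *Msx2* and *Krt18*, and that of Day 7 for *Col10a1* too. The larger Day 7 cluster had the highest level, 244.6 and 256.1. The smaller one of low depth, with 215 and 208 cells, had 94.6 and 107.9. The deeper chondrocyte-like cluster had 26.7 and 24.2 and that of low depth 118.6 and 86.1, so the levels of the small contractile and the low-depth chondrocyte-like clusters overlapped. At Day 10 the contractile mesenchyme-like cluster had the highest level, 258.6 and 252.2, against 36.7 and 41.1 in the deeper chondrocyte-like cluster, 85.3 and 76.7 in that of low depth and 27.2 and 27.8 in the osteoblast-like cluster. The *Ankrd1* cluster held 65.2% and 60.6% of the clustered *Inhba* UMIs at Day 2, from 1169 of 8975 and 2219 of 12269 cells. At Day 7 the larger contractile mesenchyme-like cluster held 56.5% and 57.8% from 15.1% and 13.6% of the cells. The Day 10 values were 39.99% and 36.4% from 13.2% and 11.5%. Cells of the *Ankrd1* cluster had a median of 36169 and 5120 UMIs, and those of the Day 10 contractile mesenchyme-like cluster 41226 and 41151.

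Thinned to 1000 UMIs, *Inhba* was seen in 3.70% (exact binomial 95% interval 3.33 to 4.10) and 3.97% (3.67 to 4.28) of Day 2 cells and in 11.2% (10.6 to 11.8) and 11.1% (10.5 to 11.8) of Day 10 cells. Unthinned shares were 28.6% and 18.8% for Day 2 and 60.7% and 58.3% for Day 10. In the Day 2 myogenic-like cluster, which had the lowest *Inhba* level, 10.1% and 6.62% of unthinned cells had a UMI at median depths of 27097 and 4145 UMIs, against 72.9% and 49.5% in the *Ankrd1* cluster. These intervals cover counting error only.

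*Tgfb3* had 71.6 and 66.4 CPM in the *Ankrd1* cluster of Day 2. It had 85.7 and 82.7 in the larger contractile mesenchyme-like cluster of Day 7, 31.6 and 31.5 in the smaller one, and 104.6 and 108.7 in that of Day 10. It was lowest in the deeper chondrocyte-like cluster at Day 7 (12.9 and 11.5, beside 45.2 and 37.7 in that of low depth) and in the osteoblast-like cluster at Day 10 (11.3 and 9.42). At Day 7 the joint interzone-like cluster followed with 75.3 and 74.8. When cells were not thinned before clustering, a perichondrium-like cluster also enriched for the cycling markers *Mki67* and *Top2a* was highest, at 86.2. Its median depths were 6653 and 6514 UMIs. Across 58 sums per cluster and library, *Tgfb3* and *Inhba* had a Pearson correlation of 0.74 on log2(CPM + 1), the highest of any pair of the 9 genes. These points share libraries and depth.

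*Tgfb1* had 43.2 and 38.0 CPM in the *Ankrd1* cluster of Day 2. The contractile mesenchyme-like clusters had 50.7 and 48.6 (the larger) and 27.8 and 19.1 (the smaller) at Day 7, and 52.4 and 56.7 by Day 10. At Day 10 the osteoblast-like cluster, marked by *Ibsp*, *Ifitm5* and *Sp7*, had 97.2 and 96.2. The immune-like cluster of Day 10 had 132.5 and 130.5. Those of Day 2 (151.3 and 103.6) and Day 7 (92.2 and 133.1) rested on 9 to 43 cells per library. Immune-like cells gave 0.64% to 5.13% of the clustered *Tgfb1* UMIs of a library, and without immune-like and myogenic-like clusters no call on *Tgfb1* was lost.

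Among the Day 2 clusters the chondrocyte-like one had *Tgfb2* at 297.9 and 309.1 CPM, which overlapped the *Ankrd1* cluster at 297.6 and 302.2. The *Ankrd1* cluster held 28.3% and 22.6% of the clustered *Tgfb2* UMIs, the largest share of any Day 2 cluster. At Day 7 the joint interzone-like cluster, with *Gdf5*, *Wnt4* and *Osr2* among its genes, was highest at 301.5 and 307.5. At Day 10 the chondrocyte-like cells of low depth had 283.1 and 245.8, the deeper ones 134.6 and 136.7, the osteoblast-like cluster 54.4 and 38.1, and the immune-like cluster 18.6 and 29.2. An unnamed Day 2 cluster was led by *Lars2* and *mt-Nd6*, and its cells had median depths of 3354 and 4181 UMIs. It was enriched for chondrocyte markers (*Col2a1*, *Acan*, *Col9a1*, *Col9a2*, *Col9a3*, *Matn4* and *Hapln1*) and for the 4 perichondrium markers. It was not part of the chondrocyte-like class. This cluster had the highest Day 2 levels of *Tgfb2* (519.5 and 443.5), *Smad7* (325.0 and 324.1), *Tgfbr1* (120.0 and 117.0) and *Tgfbi* (313.3 and 254.2), and the part of depth in this was not tested. At double the clustering resolution, *Tgfbi* was instead highest in a contractile mesenchyme-like cluster, at 356.1.

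**Figure D2:**
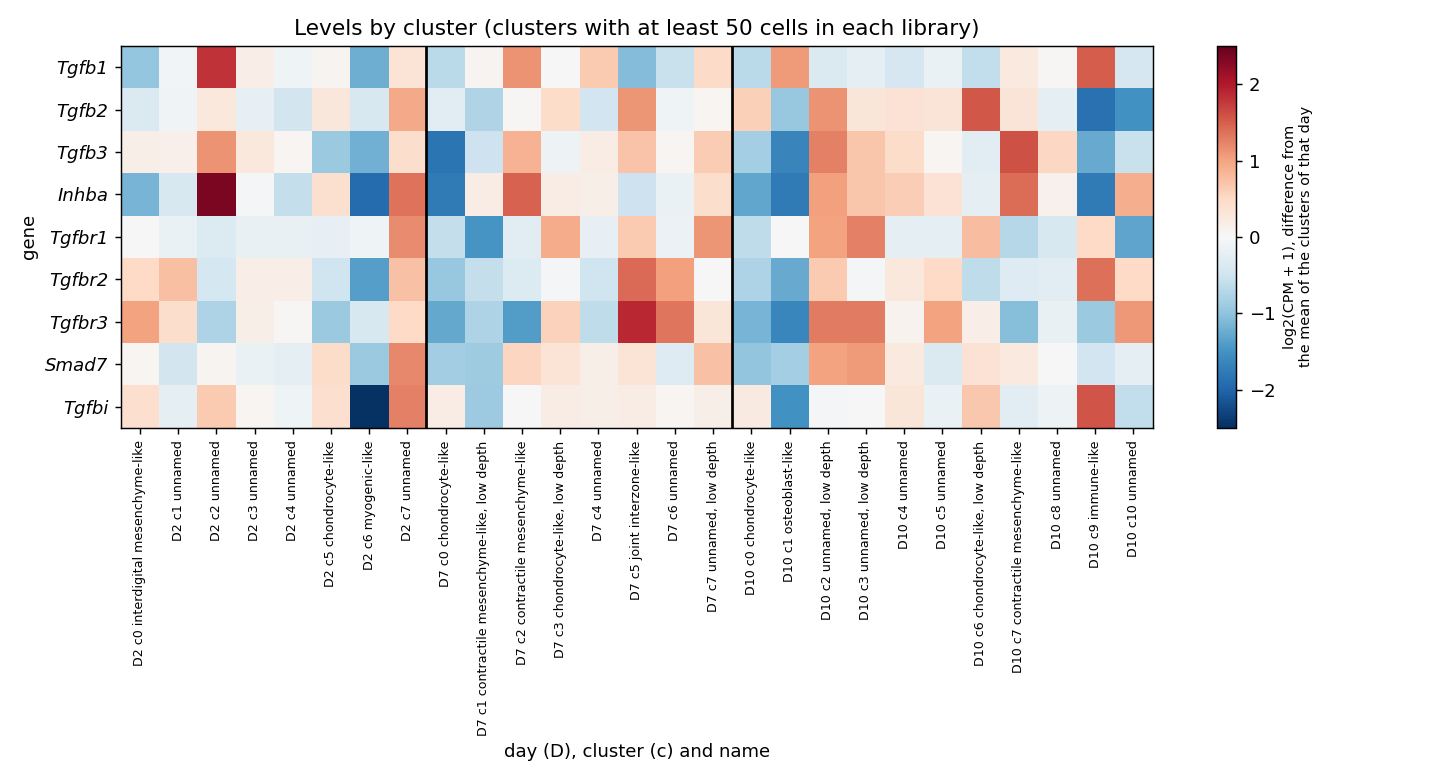
Each cell of the map is the difference of log2(CPM + 1) of a gene (rows) in a cluster (columns, by day) from the mean of the clusters of that day, in red where higher and blue where lower. *Inhba* and *Tgfb3* are red in the unnamed *Ankrd1* cluster of Day 2 (D2 c2) and in the larger contractile mesenchyme-like cluster of Day 7 (D7 c2) and that of Day 10 (D10 c7), and *Tgfbr2* and *Tgfbr3* are red in the Day 7 joint interzone-like cluster (D7 c5).

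The receptors *Tgfbr2* and *Tgfbr3* were highest at Day 7 outside the chondrocyte-like and contractile mesenchyme-like clusters. In the joint interzone-like cluster *Tgfbr2* had 99.3 and 94.0 CPM, in the unnamed cluster with *Igf1* and *Tnmd* 75.9 and 71.9, in the larger contractile mesenchyme-like cluster 28.4 and 27.7, and in the deeper chondrocyte-like cluster 18.3 and 17.5. *Tgfbr3* had 53.1 and 49.8, 33.0 and 36.4, 4.45 and 4.24, and 4.82 and 4.80 in the same clusters. The chondrocyte-like cluster of low depth had 40.5 and 28.5 of *Tgfbr2* and 21.4 and 18.6 of *Tgfbr3*. In the small contractile mesenchyme-like cluster *Tgfbr2* was at 36.6 and 10.1, and *Tgfbr3* at 10.1 and 4.49. So the cluster with the most *Inhba* had the lowest mean *Tgfbr3*, with 95% Poisson intervals of 3.88 to 5.09 and 3.66 to 4.88. These overlapped those of the deeper chondrocyte-like cluster, and the small contractile mesenchyme-like cluster, at 4.49 in replicate B, lay inside the second. At Day 10 *Tgfbr2* was highest in the immune-like cluster (72.7 and 91.2), and both receptors were lowest in the osteoblast-like cluster, at 12.3 and 12.2 for *Tgfbr2* and 2.13 and 2.14 for *Tgfbr3*.

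**Figure D3:**
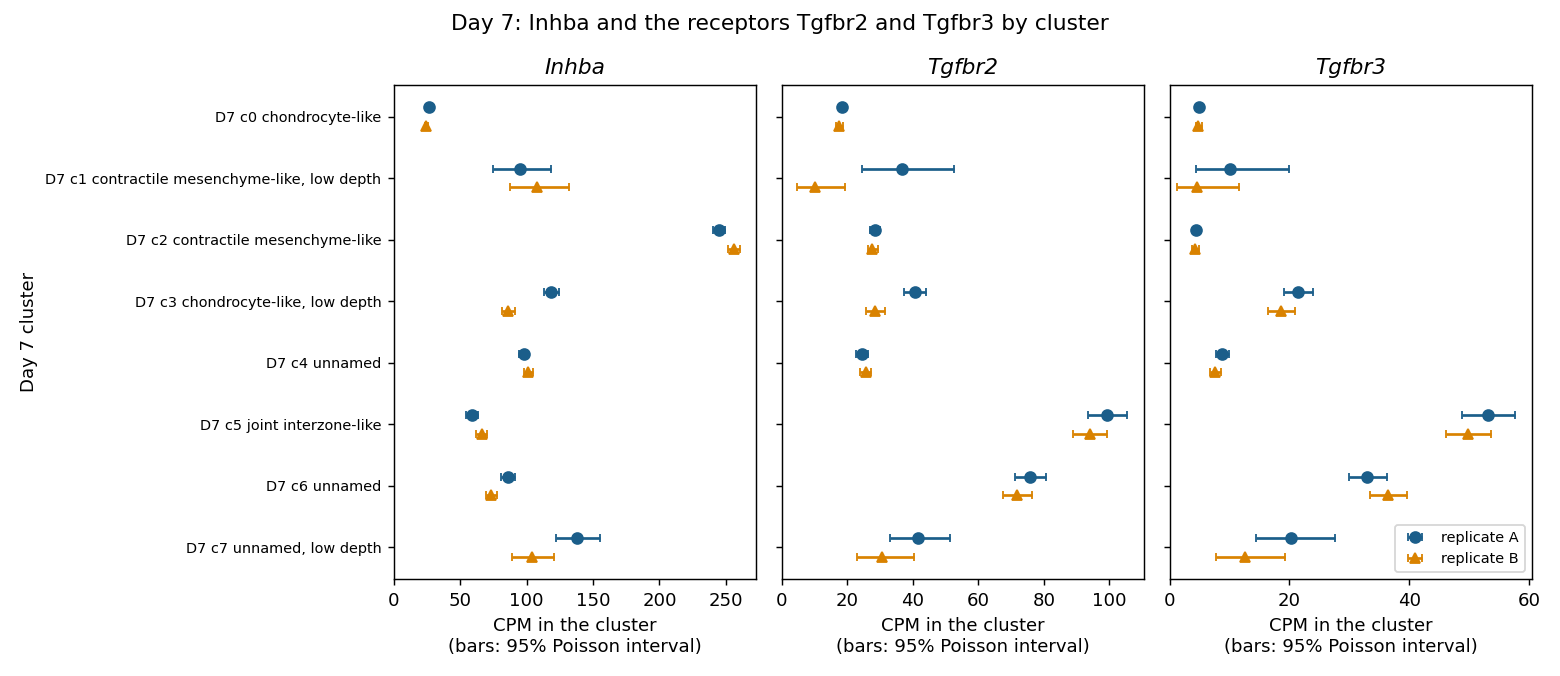
CPM of *Inhba*, *Tgfbr2* and *Tgfbr3* in the Day 7 clusters (linear axes from 0), with a circle for replicate A, a triangle for replicate B and bars for the 95% Poisson interval of the count. *Inhba* is highest in the larger contractile mesenchyme-like cluster (c2, 244.6 and 256.1), where *Tgfbr3* is low (4.45 and 4.24), and lower in the smaller one of low depth (c1, 94.6 and 107.9), and both receptors are highest in the joint interzone-like cluster.

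*Tgfbi* was lowest in the myogenic-like cluster at Day 2 (19.3 and 21.7 CPM) and in the osteoblast-like cluster at Day 10 (22.0 and 24.4). It was highest at Day 10 in the immune-like cluster (187.3 and 217.1). At Day 7 the low-depth clusters were uneven between replicates, with 102.6 and 64.9 in the chondrocyte-like one and 60.6 and 16.9 in the small contractile mesenchyme-like one. The deeper chondrocyte-like cluster had 80.5 and 86.8 and the larger contractile mesenchyme-like cluster 72.3 and 72.7.

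By a fixed rule, the genes most like each of the 9 across the 58 sums were named, among 8417 genes. *Inhba* was most like *Map6*, *Gask1b* and *Thbs1* (Pearson correlation 0.90, 0.88 and 0.87). *Tgfb1* was most like *H2-K1*, *Fxyd5* and *H2-D1* (0.88, 0.88 and 0.86), *Tgfb2* like *Lpar4*, *Suco* and *Zfr* (0.89, 0.85 and 0.85), and *Tgfb3* like *Prss23*, *Cxcl12* and *F2r* (0.86, 0.85 and 0.85). For the receptors the leading genes were *Wapl* for *Tgfbr1* (0.91), *Rgs2* for *Tgfbr2* (0.84) and *Scara3* for *Tgfbr3* (0.85), and they were *Wdr36* for *Smad7* (0.90) and *Wwp1* for *Tgfbi* (0.80).

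Chondrocyte-like cells were the only class named at all 3 days with at least 50 cells in each library, from 779 to 5136 cells. Within them, from Day 2 to Day 10, and with TMM scaling, all 9 genes were called in the same directions as in the whole cultures, 5 higher and 4 lower, where 71.5% of 16153 genes were called, 36.8% higher and 34.7% lower. *Smad7* had 160.7 and 161.4 CPM (TMM-scaled) at Day 2, 38.5 and 37.4 by Day 7, and 38.8 and 42.3 by Day 10. Both later days were far below Day 2, and the log2 fold change to Day 10 was -1.99 ± 0.06 (SE, edgeR adjusted p = 1.41e-11), beside -0.76 ± 0.06 in whole cultures. *Inhba* had 38.6 and 32.8 at Day 2, 45.7 and 38.3 by Day 7, and 45.7 and 48.7 by Day 10. The log2 fold change of *Inhba* to Day 10 was 0.40 ± 0.10 (SE, edgeR adjusted p = 0.00217), beside 1.62 ± 0.07 in whole cultures. That call depended on the scaling. On library totals without TMM factors, *Inhba* had 46.4 and 39.8 CPM at Day 2 and 41.7 and 45.6 at Day 10, which overlapped, and the log2 fold change was 0.014 ± 0.099 (edgeR adjusted p = 0.906). The other 8 genes passed in the same directions on that scale, where the median of all genes was -0.35 beside 0.032 with the factors and 3714 genes were higher and 8177 lower. *Tgfb3* was then at 0.33 and *Tgfbr2* at 0.34, beside 0.71 and 0.72. The differences between the chondrocyte-like cells and the whole cultures were not tested. *Tgfb1* rose by 1.69 ± 0.09 and *Tgfbr3* by 2.30 ± 0.19, from 0.82 and 0.98 to 4.21 and 4.61, and the other 5 genes had log2 fold changes between -1.15 and 0.72. The class was cluster 5 at Day 2, clusters 0 and 3 at Day 7 and clusters 0 and 6 at Day 10, and clusters 3 and 6 were of low depth. The shallow Day 2 *Lars2* cluster, which had chondrocyte and perichondrium markers, was not in it. The name of cluster 3 depended on the resolution. At double the resolution Day 7 held a perichondrium-like cluster of 2766 cells and a chondrocyte-like one of 2253 at similar depth, and at the lower resolution a cluster of 5687 cells with chondrocyte and perichondrium markers was unnamed. Without the clusters of low depth, none of which was at Day 2, all 9 calls held, with *Inhba* at 0.28 ± 0.08 (edgeR adjusted p = 0.00628) and *Smad7* at -2.18 ± 0.06.

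**Figure D4:**
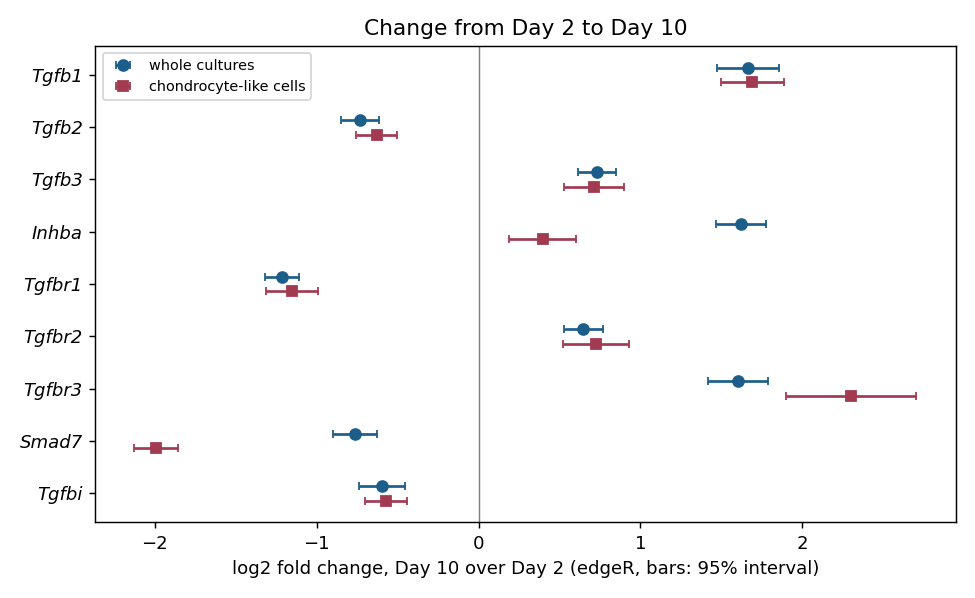
Log2 fold change from Day 2 to Day 10 with 95% intervals for the 9 genes, in whole cultures (circles) and in chondrocyte-like cells (squares). With TMM scaling the directions are alike in all 9, *Inhba* is 1.62 in whole cultures and 0.40 in chondrocyte-like cells (0.014 without the TMM factors), and *Smad7* is -0.76 and -1.99.

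The wider pathway list had 43 genes, of which 42 were tested (*Nodal* had too few UMIs). From Day 2 to Day 7, 19 were called higher and 16 lower, 83.3% in all, with a median log2 fold change of 0.10 beside 0.01 over all genes, of which 70.3% were called. From Day 7 to Day 10, 19 were higher and 9 lower, or 66.7% beside 52.2% of all genes, but 5 were lower without Day 7 replicate A and 10 were higher with each cell thinned to 1000 UMIs. From Day 2 to Day 10, 19 were higher and 16 lower, or 83.3% beside 77.3%, and the median was 0.03 beside 0.0013 over all genes. Without TMM factors, 14 were higher and 22 lower from Day 2 to Day 7, where 4647 of all 18987 genes were higher and 9325 lower. From Day 2 to Day 10, 15 were then higher and 23 lower, where 5474 of all genes were higher and 9347 lower. After thinning, the 16 lower became 10 from Day 2 to Day 7 and 9 from Day 2 to Day 10. Among all genes, those lower went from 6570 to 3914 and from 7256 to 4372 with thinning. The shares of all genes called higher and lower with TMM factors and no thinning were 35.7% and 34.6%, 26.3% and 25.9%, and 39.0% and 38.2% in the 3 comparisons.

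Of the 10 genes of latency and activation, 8 were higher and 2 lower from Day 2 to Day 10 with TMM scaling. Their median log2 fold change was 1.76, where 39.0% of all genes were called higher and 38.2% lower. *Lrrc32*, which anchors latent TGF-beta on the cell surface, was higher by 4.07 ± 0.10 (SE, edgeR adjusted p = 5.79e-09). *Ltbp2*, a latent TGF-beta binding protein by sequence, was higher by 3.77 ± 0.09 (edgeR adjusted p = 4.5e-09). *Itgb6*, an integrin chain that activates latent TGF-beta, was lower, at -3.28 ± 0.50 (edgeR adjusted p = 0.000288), resting on 63 and 57 UMIs in the Day 2 libraries and 2 and 11 in those of Day 10. *Itgb8* was the other gene that fell.

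Of the other ligands, *Gdf15* was higher from Day 2 to Day 10, by a log2 fold change of 3.11 ± 0.21 (SE), and *Mstn*, or myostatin, lower, at -1.65 ± 0.20. Among receptors, *Acvr2b*, a type II receptor for activin and myostatin, was lower, at -2.94 ± 0.07 (edgeR adjusted p = 5.58e-09). Of all 6 receptors tested, 1 was higher, 2 were lower and 3 did not pass, where 39.0% of all genes were called higher and 38.2% lower. The mediators *Smad2* and *Smad4* were lower and *Smad3* did not pass (0.06, edgeR adjusted p = 0.392).

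Of 12 inhibitors, 4 were higher and 6 lower from Day 2 to Day 10, and of 6 target genes, 4 were higher and 2 lower, where 39.0% of all genes were called higher and 38.2% lower. *Dcn*, decorin, which binds TGF-beta, was higher by 4.96 ± 0.07 (SE, edgeR adjusted p = 1.77e-09) from Day 2 to Day 7 and lower, at -0.89 ± 0.05 from Day 7 to Day 10 (edgeR adjusted p = 1.47e-05). *Pmepa1* was higher by 0.67 ± 0.08 in that last interval, and *Tgif2* was lower, at -1.53 ± 0.06 from Day 2 to Day 10. Among the targets, *Cdkn2b*, a cell-cycle inhibitor, was higher by 1.46 ± 0.14 from Day 7 to Day 10 (edgeR adjusted p = 9.34e-05), and *Id1*, which also responds to BMP, was lower, at -1.38 ± 0.07 from Day 2 to Day 7 (edgeR adjusted p = 5.08e-07). In the first interval *Gdf11* and in the second *Inha* were also among the largest falls, at -1.54 ± 0.09 and -0.78 ± 0.19.

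**Figure D5:**
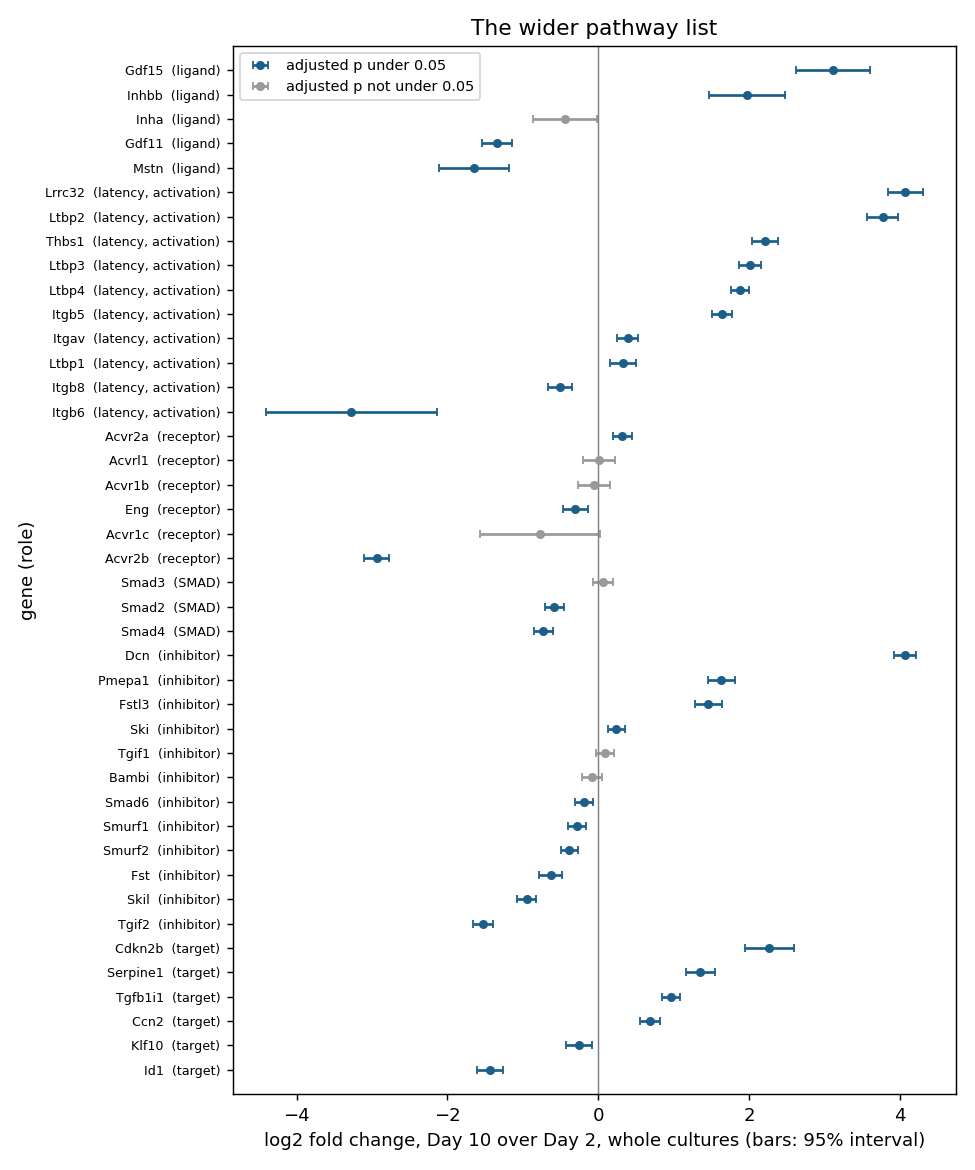
Log2 fold change from Day 2 to Day 10 in whole cultures, with 95% intervals, for the 42 tested genes of the wider list, grouped by role and coloured blue where the adjusted p is under 0.05. *Lrrc32* (4.07) and *Dcn* (4.07) lie farthest to the right, and *Itgb6* (-3.28) and *Acvr2b* (-2.94) farthest to the left.

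In chondrocyte-like cells, 40 genes of the wider list were tested from Day 2 to Day 10, with 15 higher and 21 lower, where 36.8% of all genes were called higher and 34.7% lower. All 12 inhibitors were tested there, with 8 lower, 3 higher and 1 that did not pass, and 4 of 5 receptors were lower. Of 9 genes of latency and activation tested in these cells, 6 were higher and 3 lower. With TMM scaling, *Ltbp1* and *Itgav* were lower there (-0.76 and -0.60) and higher in whole cultures (0.33 and 0.39). Without TMM factors the median log2 fold change of all genes in whole cultures was -0.26, and neither gene is given on that scale.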

How the data were processed

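Droplet libraries (10x Genomics 3' chemistry) of 6 DID cultures, 2 per day, were used. The authors aligned reads with Cell Ranger 6.1.2 (GRCm38 per the labels) and deposited raw UMI counts per gene and barcode, before their Seurat 4.1.0 analysis. From these counts, the limits on UMIs, genes, mitochondrial and ribosomal share that the study's methods give were applied per library, UMIs were summed per library, and edgeR 4.0.16 (filterByExpr, TMM, quasi-likelihood test, R 4.3.3) compared days over all 6 libraries, with Benjamini-Hochberg adjustment over 18987 genes and a threshold of 0.05. The common biological coefficient of variation was 0.0689. DESeq2 1.42.0 was an alternative.

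Cells of at least 2000 UMIs were thinned to 2000 and clustered per day with scanpy 1.11.5 (Python 3.11.15, 2000 variable genes, 35 components, 20 neighbours, resolution 0.5, 0.5 and 0.7 at Day 2, 7 and 10), leaving out the 9 genes, the wider list and mitochondrial and ribosomal genes. This left out 4.26% to 28.2% of kept cells per library, most in Day 7 replicate A. A name needed at least 3 enriched markers of its list (log2 fold over 1, a UMI in at least 10% of cells), and the rule was set after the clusters had been seen. No doublet caller was run and no doublets were removed. A cluster was called of low depth when its median UMI count was under 0.5 times the median of the clustered cells in both libraries. No Day 2 cluster met this, not even the *Lars2* cluster with medians of 3354 and 4181 UMIs. Leaving out clusters of low depth thus removed cells of Day 7 and Day 10 only, and it cannot show the part of shallow Day 2 cells.

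Named genes were the 9 members, in each whole-culture comparison the 4 called genes of the wider list with the largest change in each direction, and for each member the genes most like it. Other genes of clusters and lists were named after their values were seen. The members, lists and tests were chosen with earlier results of these data known. The labels do not say whether equal replicate letters share a pool of tissue, and the libraries were treated as unpaired. Deviations from the day means of equal letters correlated at -0.03, -0.09 and -0.08 over 8031 genes, which cannot exclude a shared pool. Alternatives were DESeq2 size factors, no low-count filter, a replicate block, all deposited barcodes, cells of at least 3000 UMIs, cells thinned to 1000 UMIs and each library left out.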

Additional observations from a re-analysis of the deposited data

Results flagged for a closer look

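*Tgfb2* and *Tgfb3* moved in opposite directions from Day 7 to Day 10 in chondrocyte-like cells and in the other clustered cells, in every library, and the difference was not tested. *Tgfb2* had 131.2 and 125.7 CPM (not TMM-scaled) in the Day 7 chondrocyte-like cells (replicate A first) and 150.1 and 150.5 in those of Day 10, a log2 ratio of 0.23. In the other clustered cells it had 146.1 and 146.9 CPM and then 107.9 and 100.9, a log2 ratio of -0.49. *Tgfb3* had 18.0 and 15.7 CPM and then 19.7 and 20.1 in chondrocyte-like cells, a log2 ratio of 0.24, and 68.5 and 66.6 and then 63.9 and 60.1 in the other cells, a log2 ratio of -0.12. For this, 27 pairs of a gene and a comparison were looked at.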

How the results depend on the processing

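Of 531 values of the 9 genes under an alternative, 514 kept their direction and their side of the threshold, 14 no longer passed, 2 passed anew and 1 turned its sign. That 1 was *Tgfb3* from Day 7 to Day 10 with cells thinned to 1000 UMIs, at -0.032. Leaving 1 library out gave 216 of the 531 values. In part of these the library was of a day outside the comparison, where little change can arise. Thinning gives each cell the same weight and leaves fewer UMIs. With it, 7943, 3414 and 8741 genes were called from Day 2 to Day 7, Day 7 to Day 10 and Day 2 to Day 10, against 13342, 9913 and 14670. Of the wider list, 10 were then called lower from Day 2 to Day 7 and 9 from Day 2 to Day 10 (16 in each without thinning), and 10 higher from Day 7 to Day 10 (19 without). Of the 9 genes, 2 were called higher from Day 7 to Day 10 with thinning, and also 2 over all deposited barcodes, against 4. Leaving out each library in turn, the wider list's count called lower from Day 7 to Day 10 ran from 5 (without Day 7 replicate A) to 9, and the cause was not tested. The 14 calls that no longer passed included *Tgfb3* from Day 7 to Day 10 without Day 7 replicate A, Day 7 replicate B or Day 10 replicate A (0.20, 0.19 and 0.15, edgeR adjusted p = 0.0778, 0.0844 and 0.0987), and *Tgfbi* over the same days with DESeq2 (adjusted p = 0.0511) and without TMM factors (edgeR adjusted p = 0.0562). *Inhba* from Day 2 to Day 10 in chondrocyte-like cells was also lost without TMM factors. With the replicate block, no call on the 9 genes changed, and 13135, 9607 and 14524 genes were called in the 3 comparisons. The labels do not say whether the letters pair the samples. At 0.5 times the clustering resolution no chondrocyte-like class was named at all 3 days, so it gave no value. With 2 libraries per day, p-values rest on the spread between libraries of a day, pooled over the 3 days. Each gene's own spread had 3 residual degrees of freedom, and 5.48 more were borrowed from all genes. Where 1 library was left out, the lone one of that day was assumed to vary like the others. The alternatives without immune-like and myogenic-like clusters, without clusters of low depth and without TMM factors, and DESeq2 size factors in chondrocyte-like cells, were chosen after seeing the data.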
